A study of Mus musculus with 20 samples.

Results

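The 41 genes described here code for the molecular chaperones and stress sensors that fold proteins in the cytosol and in the endoplasmic reticulum (ER), measured in whole mouse adrenal glands. They were taken by symbol from the 47729 genes of the series and fall into 3 groups by the compartment of the protein. The heat shock arm has 16 genes of the cytosol and nucleus, the ER arm has 22 genes, and 3 genes code for chaperones of the mitochondrion. They were chosen with earlier results of these data known, and all 41 were detected in all 20 libraries. The series measured gene expression by RNA sequencing in adrenals of female and male mice with and without inactivation of Bmal1, the clock transcription factor encoded by Arntl. The groups are 5 control females aged 1.5 to 3.4 months, 5 Bmal1 KO females aged 2.4 to 3.4 months, 6 control males aged 2.9 to 4.7 months and 4 Bmal1 KO males aged 2.9 to 3.7 months. Controls and Bmal1 KO alike are labelled SCC::Cre, so the recombinase is present in both genotypes, and no group without it is used here. SCC stands for the side-chain cleavage enzyme Cyp11a1, whose promoter is active in the steroid-producing cells of the cortex, while the medulla and other cells of the gland are also in the tissue. The hour at which glands were collected is not stated in the sources used here, and nothing in the labels says that all libraries came from separate animals, so p-values measure the spread between these libraries.

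Chaperones bind unfolded stretches of proteins and release them in cycles driven by ATP, and co-chaperones of the J-domain and BAG families set the pace of that cycle. In the cytosol, unfolded protein frees the transcription factor Hsf1, which binds heat shock elements and raises genes of the Hsp70, Hsp90 and small heat shock protein families. In the ER, unfolded protein activates the sensors Ern1 (IRE1), Atf6 and Eif2ak3 (PERK), whose outputs Xbp1, cleaved Atf6 and Atf4 raise ER chaperones, disulphide isomerases and the machinery of ER-associated degradation, which returns misfolded proteins to the cytosol for destruction. Steroid-producing cells carry an extensive smooth ER and many mitochondria, where the steroidogenic P450 enzymes sit.

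Recovered reads ran from 13421985 to 26742820 per library, and control male 4 was the shallowest. Arntl as a whole gene was at 494 to 860 normalised reads in control females and 833 to 1010 in Bmal1 KO females, and at 365 to 1092 in control males and 841 to 995 in Bmal1 KO males. That sum includes exons that a deletion would leave in place, so it does not check the labels; below, Bmal1 KO is the label. Cry1, a repressor of the clock, lay between 207 and 237 for control females against 1597 to 2137 for their Bmal1 KO group, and between 122 and 213 against 1140 to 1423 for the male groups, so every library fell with its genotype label. Genes of the adrenal cortex were at high levels in all libraries. Of 5 kidney markers, Umod and Slc34a1 were at 0 in all libraries, and the sum of the 5 ran from 1.03 to 10.99 normalised reads. Control male 6 stood apart from the other control males in 5 of the 18 chaperone genes searched for such values. Calls by sex in controls that its removal gains or ends are given with and without it.

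Response elements were searched in the promoters of the 2 arms. The ER stress response element was found in several ER genes, while the heat shock element was found in 1 gene of the heat shock arm and in 2 mitochondrial genes, and the matches are printed to show which genes hold which. Windows from 250 bases before to 50 bases after each transcription start were taken from RefSeq on GRCm38.p6, where 32 of the 41 genes matched with 38 windows; Hspa8, Hsp90aa1, Hsp90ab1, Hsf1, Cryab, Hspa9, Atf6, Manf and Hyou1 had no entry. The ER stress response element was searched on both strands as CCAAT and CCACG with 9 bases of any kind between them, and 8 of 19 windows of ER genes (42.1%) held it, against 0.119% of all 32851 windows and 0 of 16 windows of the heat shock arm. The 8 genes were Hspa5, Hsp90b1, Calr, Canx, Pdia6, Dnajc3, Creld2 and Syvn1, and Hsp90b1 held 2 copies. A shorter form searched as ATTGG and CCACG around 1 free base was found in Herpud1 and Dnajb11 and in 0.0365% of all windows. In the sites below, capitals mark the fixed bases of the motif and lower case its spacer.
Hspa5: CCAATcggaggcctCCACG
Hsp90b1, nearer copy: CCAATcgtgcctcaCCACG
Hsp90b1, farther copy: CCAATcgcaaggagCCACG
Calr: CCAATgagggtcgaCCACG
Canx: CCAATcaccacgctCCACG
Pdia6: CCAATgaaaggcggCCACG
Dnajc3: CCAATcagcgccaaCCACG
Creld2: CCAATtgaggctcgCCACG
Syvn1: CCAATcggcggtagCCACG
Herpud1: ATTGGgCCACG
Dnajb11: ATTGGcCCACG
The heat shock element was searched as GAA, TTC and GAA, each separated by 2 free bases, and occurred in 0.603% of all windows. Only Hsph1, Hspd1 and Hspe1 among the 32 matched genes held it. Here and in the other searches all fixed bases had to match, so a window without a match may still hold a variant of the element. The Hsph1 site, GAActTTCcaGAA, lies after the start. Hspd1 and Hspe1 are transcribed away from each other from one stretch of chromosome 1, and share 2 overlapping sites, GAAggTTCtaGAA and GAAccTTCcgGAA. The unfolded protein response element TGACGTGG was in 0 of the 38 windows and in 0.676% of all. The E-box CACGTG, the sequence that Bmal1 and Clock bind, was in 5 of the 38 windows (13.2%), those of Hsph1, Hspd1, Calr and Dnajb9, against 7.15% of all. These matches are descriptions of letters and not of binding.

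Hspd1 also has a window at chr1:55088194-55088493, whose start lies inside Hspe1 and which held no heat shock element. The stretch from which Hspd1 and Hspe1 are transcribed apart is shown with the merged heat shock elements in capitals (chr1:55087933-55088147, GRCm38.p6, plus strand).
Hspd1 and Hspe1: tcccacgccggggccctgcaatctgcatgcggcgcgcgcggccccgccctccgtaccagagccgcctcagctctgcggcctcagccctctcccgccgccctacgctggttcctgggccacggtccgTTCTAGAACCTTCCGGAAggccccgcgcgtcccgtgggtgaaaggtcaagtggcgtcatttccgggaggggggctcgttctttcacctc
The 250 bases upstream of the start are shown for the 2 genes of ER-associated degradation that differ below between genotypes. The Herpud1 window (chr8:94386179-94386428, plus strand) has its short ER stress element in capitals.
Herpud1: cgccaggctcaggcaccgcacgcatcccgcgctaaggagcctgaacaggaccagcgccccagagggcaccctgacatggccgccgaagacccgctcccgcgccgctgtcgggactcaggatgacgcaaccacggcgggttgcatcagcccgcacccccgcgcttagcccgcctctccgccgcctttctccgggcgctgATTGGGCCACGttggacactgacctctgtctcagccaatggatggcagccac
The Sel1l window (chr12:91849158-91849407, minus strand) held none of the 5 motifs and is printed in lower case throughout.
Sel1l: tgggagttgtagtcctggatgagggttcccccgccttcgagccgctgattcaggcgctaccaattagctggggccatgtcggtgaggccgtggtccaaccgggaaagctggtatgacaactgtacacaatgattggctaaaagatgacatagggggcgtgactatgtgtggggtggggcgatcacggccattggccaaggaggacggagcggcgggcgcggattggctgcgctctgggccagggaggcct

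Levels of the chaperones spanned a wide range when normalised reads were divided by the length of each gene's exons. The mean over the 20 libraries was highest for Hspd1, at 12315 normalised reads per kilobase, followed by Hsp90ab1 at 10998, Hspe1 at 6788, Hsp90b1 at 5142, Pdia3 at 4327 and Hspa8 at 4323. The constitutive folding machines of each compartment thus stood highest: Hsp60 and its lid Hsp10 in mitochondria, Hsp90ab1 and Hspa8 in the cytosol, and the Hsp90 Hsp90b1 in the ER. The lowest 2 were Hsf1 at 101 and the sensor Eif2ak3 at 121 normalised reads per kilobase; of the other stress sensors and regulators, Atf6 stood at 187, Ern1 at 506 and Xbp1 at 989. Levels of Hspd1 and Hspe1 carry a doubt, since 5 and 6 pseudogenes named after them are annotated and the files do not say how reads shared with such copies were counted.

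The first comparison asks what loss of Bmal1 changed among the chaperones. In females, 1 ER gene rose and 1 fell, Sel1l and Herpud1, and no gene of the heat shock arm or of the mitochondrial group passed the test. In males Sel1l again rose, and Hspa8 of the heat shock arm fell. The 2 called genes of 41 came to 4.88% in each sex, against 1.75% of all 26612 genes tested in females and 1.33% in males, and against 3.05% and 2.53% of the 9537 genes at least as abundant as the lowest chaperone. Called higher were 1.12% of all genes in females and 0.763% in males, and called lower 0.635% and 0.567%. With counts of 2 genes, these shares lie close to the background. Differences are on the scale of log2(normalised reads + 1), Bmal1 KO minus control, with standard errors, and calls were made where p, adjusted by Benjamini and Hochberg's method over all genes tested, was under 0.05. In females the median difference was -0.06 in the heat shock arm and -0.05 in the ER arm, against 0 over all genes, and in males -0.04 and -0.07 against 0.00. These medians moved with single libraries and kept their sign in all runs that left 1 out. That of the heat shock arm in females was -0.14 without Bmal1 KO female 1, -0.10 without control female 4, -0.04 without Bmal1 KO female 4 and -0.03 without control female 2. That of the ER arm in females was -0.08 without Bmal1 KO female 4 or control female 3, -0.02 without Bmal1 KO female 5 and -0.0046 without control female 5. In males the heat shock median was -0.07 without control male 4 and -0.02 without control male 2 or 3, and the ER median -0.10 without Bmal1 KO male 3 and -0.04 without Bmal1 KO male 1. Of the 41 genes, 28 had a negative difference in females and 30 in males, while 13 and 11 had a positive one. Over all genes tested, 49.86% had a positive difference in females and 50.05% in males. Single libraries shifted many genes of an arm at once, so these counts are not of independent genes, and they were not tested.

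**Figure D1:**
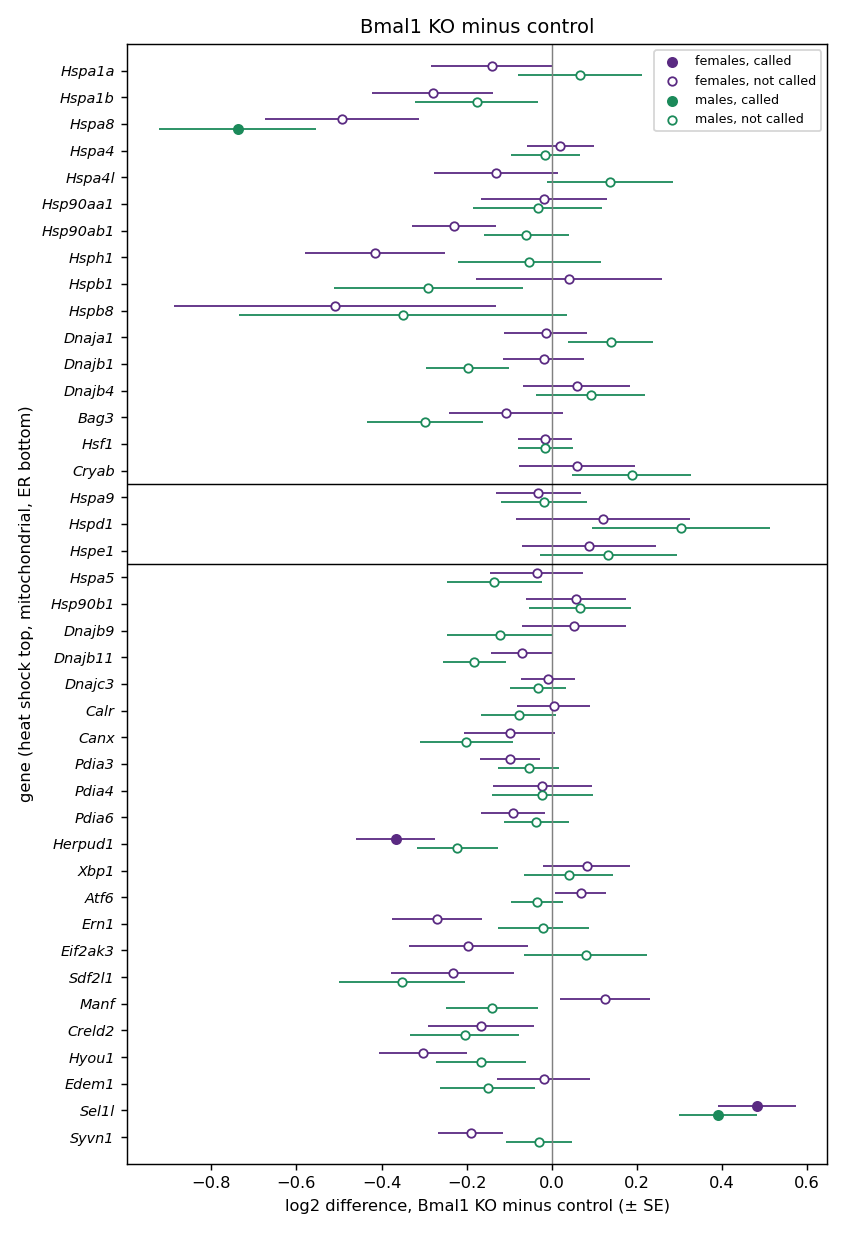
Difference between Bmal1 KO and control for each of the 41 chaperone genes, as log2(normalised reads + 1) with standard error, in females and in males; filled points passed the test at an adjusted p under 0.05. Sel1l lies to the right in both sexes, Herpud1 passed in females and Hspa8 in males, and the other genes lie near 0 or did not pass.

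Sel1l codes for the adaptor of the Hrd1 ubiquitin ligase, which draws misfolded proteins out of the ER, and lies at chr12:91806043-91849157 on the minus strand (GRCm38). It stood at 4398, 4965, 4861, 4679 and 5037 normalised reads in the 5 control females and at 6322, 6724, 6154, 7360.3 and 6909 in the 5 Bmal1 KO females. Every Bmal1 KO female was above every control female, and the difference was 0.48 ± 0.09 (adjusted p = 0.00524), a 1.4-fold rise. The 6 control males lay from 3763 to 4808 (median 4111), and the 4 Bmal1 KO males stood at 5819, 4181, 6157 and 5972. Bmal1 KO male 2 lay within the control males while the other 3 were above all of them, and the difference was 0.39 ± 0.09 (adjusted p = 0.0359), a 1.31-fold rise. The female effect minus the male effect was 0.09 ± 0.13 (adjusted p = 0.982), so no difference between the sexes in this rise was detected. The female call held without each of the 20 libraries in turn, with adjusted p up to 0.0178. The male call was lost without any of control males 1 to 4 or Bmal1 KO males 1, 3 and 4 (adjusted p from 0.0689 to 0.155), with only the male groups in the fit (0.184) and with age as a covariate (0.0672).

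Herpud1 codes for a membrane protein of the same Hrd1 complex and is among the genes raised most readily by ER stress; it lies at chr8:94386438-94395377 on the plus strand. Its values were 1814, 1863, 1759, 1952 and 2233 in control females and 1451, 1399, 1650.0, 1692 and 1282 in Bmal1 KO females. The female groups did not overlap, and the difference was -0.37 ± 0.09 (adjusted p = 0.0461), a fall to 0.776 of the control level. In control males it lay from 1566 to 2127 (median 1729), and Bmal1 KO males stood at 1333, 1473, 1549.9 and 1697. Male ranges overlapped, the difference of -0.22 ± 0.10 (adjusted p = 0.382) did not pass, and the interaction was -0.14 ± 0.13 (adjusted p = 0.948). The female call lay close to the threshold, while the female difference stayed between -0.41 and -0.31 without each library in turn. The call held without 6 of the 20 libraries (Bmal1 KO females 3 and 4, control males 5 and 6, Bmal1 KO males 1 and 4). The call was lost without each of the other 14, male libraries among them, with adjusted p from 0.0525 to 0.141. It was also lost with only the female groups in the fit (0.0948) and with age as a covariate (0.0727).

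The other genes of the degradation machinery were not called in either sex. Syvn1, the Hrd1 ligase that Sel1l holds in place, spanned 1008 to 1108 in control females against 821 to 1104 in Bmal1 KO females, a difference of -0.19 ± 0.08 (adjusted p = 0.28), and differed by -0.03 ± 0.08 (adjusted p = 0.945) in males. Edem1, a mannosidase-like lectin that hands glycoproteins to degradation, differed by -0.02 ± 0.11 (adjusted p = 0.976) in females and -0.15 ± 0.11 (adjusted p = 0.695) in males. Within 1 complex, Sel1l was thus higher and its partners Syvn1 and Herpud1 had negative differences in Bmal1 KO females; the differences between these genes' responses were not tested.

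Among the sensors of the ER, none passed the test. Ern1, the IRE1 kinase and nuclease that splices Xbp1, spanned 3239 to 4114 in control females against 2989 to 3159 in Bmal1 KO females, which do not overlap, with a difference of -0.27 ± 0.11 (adjusted p = 0.274). In males Ern1 differed by -0.02 ± 0.11 (adjusted p = 0.979). Eif2ak3, the PERK kinase that slows translation, stood at 591, 773, 820.1, 946 and 722 in control females and at 589.6, 655, 870.0, 633 and 609 in Bmal1 KO females. Its control males lay from 537 to 973 (median 702), against 800.2, 769, 685 and 772 in Bmal1 KO males, and all groups overlapped. Atf6, the sensor cleaved in the Golgi, differed by 0.07 ± 0.06 (adjusted p = 0.753) in females and -0.03 ± 0.06 (adjusted p = 0.912) in males, and total Xbp1 by 0.08 ± 0.10 (adjusted p = 0.846) and 0.04 ± 0.10 (adjusted p = 0.947). Gene totals do not separate spliced from unspliced Xbp1.

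The lumenal chaperones of the ER likewise gave no call between genotypes. Hspa5 (BiP), the Hsp70 of the ER and the usual readout of its stress, spanned 13251 to 19384 in control females against 13070.5 to 16978 in Bmal1 KO females, a difference of -0.04 ± 0.11 (adjusted p = 0.953), and differed by -0.14 ± 0.11 (adjusted p = 0.739) in males. Hsp90b1 (Grp94) differed by 0.06 ± 0.12 (adjusted p = 0.921) in females and 0.07 ± 0.12 (adjusted p = 0.913) in males. The smallest p among ER genes not called in females was that of Hyou1, the large Hsp70 that exchanges nucleotide on BiP, with -0.30 ± 0.10 (adjusted p = 0.178). Calr and Canx, the lectins that hold glycoproteins during folding, differed by 0.00 ± 0.09 and -0.10 ± 0.11 in females and by -0.08 ± 0.09 and -0.20 ± 0.11 in males. The disulphide isomerases Pdia3, Pdia4 and Pdia6 lay between -0.10 (Pdia3, females) and -0.02 (Pdia4, both sexes). Of the J-domain cofactors of BiP, Dnajb9, Dnajb11 and Dnajc3 differed by 0.05 ± 0.12, -0.07 ± 0.07 and -0.01 ± 0.06 in females and by -0.12 ± 0.12, -0.18 ± 0.07 and -0.03 ± 0.07 in males. The secreted stress-response proteins Manf and Creld2 differed by 0.12 ± 0.11 and -0.17 ± 0.12 in females and by -0.14 ± 0.11 and -0.20 ± 0.13 in males, and Sdf2l1, a partner of BiP cofactors, by -0.23 ± 0.14 and -0.35 ± 0.15. None of these passed, with adjusted p from 0.178 upwards.

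In the heat shock arm the call in males was Hspa8 (Hsc70), the constitutive cytosolic Hsp70, at chr9:40800984-40810087 on the plus strand. Control males lay from 11894 to 21043 (median 18019.8), and Bmal1 KO males stood at 10631, 10373, 10504 and 9686. The male groups did not overlap, and Hspa8 fell by 0.74 ± 0.18 (adjusted p = 0.0495), to 0.599 of the control level. In females it stood at 29179.6, 20432, 25625, 26137 and 28563 in controls and at 29034, 14718, 21728, 18378 and 12092 in Bmal1 KO. Bmal1 KO female 1 was among the highest of all libraries and the other 4 reached down to 12092, so the groups overlapped and the difference of -0.49 ± 0.18 (adjusted p = 0.225) did not pass. The interaction was 0.24 ± 0.26 (adjusted p = 0.955), so a difference between the sexes was not detected. The male call held without 4 of the 20 libraries (control female 2, Bmal1 KO females 1 and 5, control male 6) and was lost without each of the other 16, with adjusted p from 0.0506 to 0.144, and with age as a covariate (0.0898). Without Bmal1 KO female 1, the female difference of Hspa8 was -0.66 ± 0.16 and passed (adjusted p = 0.0430). Small nucleolar RNA genes lie in exons counted for Hspa8 (Snord14c, Snord14d and Snord14e, 2% to 2.09% of its exon bases each), on the same strand.

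The other genes of the heat shock arm gave no call in either sex. Hspa1a and Hspa1b, the inducible Hsp70 genes on chromosome 17, are near-identical copies whose reads cannot be assigned with certainty. Hspa1a stood at 551, 828, 528, 624 and 589 in control females and at 666, 696, 503, 444 and 525 in Bmal1 KO females, and Hspa1b at 1154, 1633, 927, 1183 and 1033 and at 1297, 946, 928, 767 and 926. In males Hspa1a lay from 418 to 672 (median 508) in controls against 481, 569, 521 and 598 in Bmal1 KO, and Hspa1b from 917 to 1345 (median 1070.0) against 968, 925, 859 and 1131. All 4 comparisons overlapped, with adjusted p from 0.462 to 0.936. Hsph1, the Hsp110 that exchanges nucleotide on Hsp70, had the second smallest p of the arm in females, with -0.41 ± 0.16 (adjusted p = 0.282), and -0.05 ± 0.17 (adjusted p = 0.959) in males. Bag3, a co-chaperone of selective autophagy, differed by -0.11 ± 0.13 (adjusted p = 0.845) in females and -0.30 ± 0.14 (adjusted p = 0.429) in males. The Hsp40 Dnajb1 differed by -0.02 ± 0.09 (adjusted p = 0.972) and -0.20 ± 0.10 (adjusted p = 0.471), and Hsp90ab1, the constitutive Hsp90, by -0.23 ± 0.10 (adjusted p = 0.342) and -0.06 ± 0.10 (adjusted p = 0.906). Hsf1 itself was the steadiest of the 41 genes, with a within-group SD of 0.077 on the log2 scale, and differed by -0.02 ± 0.06 and -0.02 ± 0.06. Hspa4, Hspb1 and Dnaja1, whose values in every library are given with the sexes below, differed by 0.02 ± 0.08, 0.04 ± 0.22 and -0.01 ± 0.10 in females and by -0.02 ± 0.08, -0.29 ± 0.22 and 0.14 ± 0.10 in males. The differences of Hsp90aa1, Hspa4l, Dnajb4 and Cryab did not pass either: in females they were -0.02 ± 0.15, -0.13 ± 0.15, 0.06 ± 0.13 and 0.06 ± 0.14, and in males -0.03 ± 0.15, 0.14 ± 0.15, 0.09 ± 0.13 and 0.19 ± 0.14.

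Hspb8, a small heat shock protein that works with Bag3, was the most variable of the 41 genes, with a within-group SD of 0.67 on the log2 scale. It stood at 2259, 5769, 2449, 2242 and 8470.0 in control females and at 1685, 1905, 4884, 1623 and 4071 in Bmal1 KO females. Control males lay from 2208 to 6907 (median 4141), against 3149.9, 4155, 3167 and 2719.9 in Bmal1 KO males. High and low libraries occurred in both genotypes, and the differences of -0.51 ± 0.38 (adjusted p = 0.677) in females and -0.35 ± 0.39 (adjusted p = 0.832) in males did not pass. The standard error of Hspb8 is 0.38 in females against 0.06 for Hsf1, so a change of the size seen for Sel1l was not detectable in it.

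The mitochondrial chaperones gave no call between genotypes. The smallest p values of the group were those of Hspd1 and Hspe1, with 0.12 ± 0.20 (adjusted p = 0.902) and 0.09 ± 0.16 (adjusted p = 0.908) in females and 0.30 ± 0.21 (adjusted p = 0.662) and 0.13 ± 0.16 (adjusted p = 0.849) in males. Hspa9 (mortalin), the Hsp70 of the mitochondrial matrix, stood at 14066, 16720.1, 14682, 14591 and 16245 in control females and at 13858, 14314, 15687, 16138 and 14609.6 in Bmal1 KO females. In control males it lay from 12329 to 18024 (median 12774), with control male 6 highest, against 15879, 11577, 14158 and 12166 in Bmal1 KO males. Hspa9 groups overlapped, and the differences were -0.03 ± 0.10 and -0.02 ± 0.10.

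Over the 41 genes, the interaction, which asks whether Bmal1 KO acted differently in females and males, gave 0 calls, where 0.0301% of all genes and 0.0419% of the abundant ones were called. At an unadjusted p under 0.05 it gave 0 of 41, against 1715 of all 26612 genes, and edgeR and DESeq2 also called 0 of the 41. The interactions ranged from -0.36 ± 0.23 for Hsph1 to 0.33 ± 0.31 for Hspb1. Standard errors reached 0.54 for Hspb8, and a difference must exceed its standard error by far to pass. Even interactions well above 0.54 were therefore not detectable in Hspb8. Markers of cell types moved between genotypes as well. In males, Star and Cyp11a1, 2 of 7 cortex markers, fell in Bmal1 KO by 0.69 and 0.71. In the same comparison 4 of the 7 had a negative difference and 3 a positive one, up to 0.26. The sum of the 7 markers ran from 849382 to 1296200 normalised reads in control males and from 718875 to 1033210 in Bmal1 KO males. In females 0 of the 7 passed, although all 7 had a negative difference, with Star at -0.53 (adjusted p = 0.0815) and sums between 1151600 and 1510140 for controls against 1074750 to 1336890 for Bmal1 KO. The X-zone marker Cyp2f2 and the macrophage marker Mrc1 were lower in Bmal1 KO females, at -2.82 (adjusted p = 0.000117) and -0.59 (adjusted p = 0.00457), which made 1 of 3 and 1 of 5 markers of these lists. In each of these 2 lists 1 marker had a positive difference, at 0.62 for the X-zone and 0.0029 for macrophages. All 5 red blood cell genes had a positive difference in females and 0 passed, with sums from 6138 to 17015 normalised reads in controls against 9784 to 20774 in Bmal1 KO. The 5 adipocyte genes all had a negative difference in females (median -0.94) and a positive one in males (median 0.63), and 0 passed. All 6 medulla markers had a negative difference in both sexes, and 0 passed. Of 10 immediate early genes, which respond to handling and stimulation, 8 had a positive difference in females (median 0.15). In males 9 of the 10 had a negative one (median -0.33). In both sexes 0 passed, while edgeR and DESeq2 each called 1 in males. All 10 interactions were positive (median 0.44), with 0 called. The part of these shifts in the Sel1l, Herpud1 and Hspa8 results was not tested; in whole glands, fewer cells of a type and less RNA per cell cannot be told apart.

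The second comparison asks how female and male adrenals differ in these chaperones, within each genotype. In controls 14 of the 41 genes were higher in females and 2 were lower, and the highest differences were in the mitochondrial pair Hspd1 and Hspe1 and the lowest in the small heat shock protein Hspb1. In Bmal1 KO 12 were higher in females and 2 were lower, led by the same 3 genes and Hspa8. The 16 calls in controls came to 39.0% of the 41, against 26.4% of all genes tested and 41.8% of the genes at least as abundant as the lowest chaperone. In Bmal1 KO the 14 calls came to 34.1%, against 22.8% of all genes tested and 37.7% of the abundant ones. Among all genes, calls higher in females were 13.5% in controls and 12.1% in Bmal1 KO, and calls lower 12.9% and 10.6%. The 9537 abundant genes leaned towards females, with 2569 called higher and 1421 lower in controls and 2332 and 1264 in Bmal1 KO. The share of chaperones that differed by sex was therefore near the background at their level of expression. The heat shock arm had 5 genes higher and 1 lower of 16 in controls with a median difference of 0.24 (0.14 without control female 2). The ER arm had 7 higher and 1 lower of 22 with a median of 0.15 (0.09 without control female 5). All genes had a median of -0.05 and the abundant genes one of 0.07. In Bmal1 KO the arms had 3 higher and 1 lower (median 0.12, and 0.08 without Bmal1 KO female 1) and 7 higher and 1 lower (median 0.16). The medians beside these were -0.07 over all genes and 0.07 over the abundant ones. Differences are female minus male. The control groups also differ in age, with control males up to 4.7 months and control females up to 3.4 months.

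**Figure D2:**
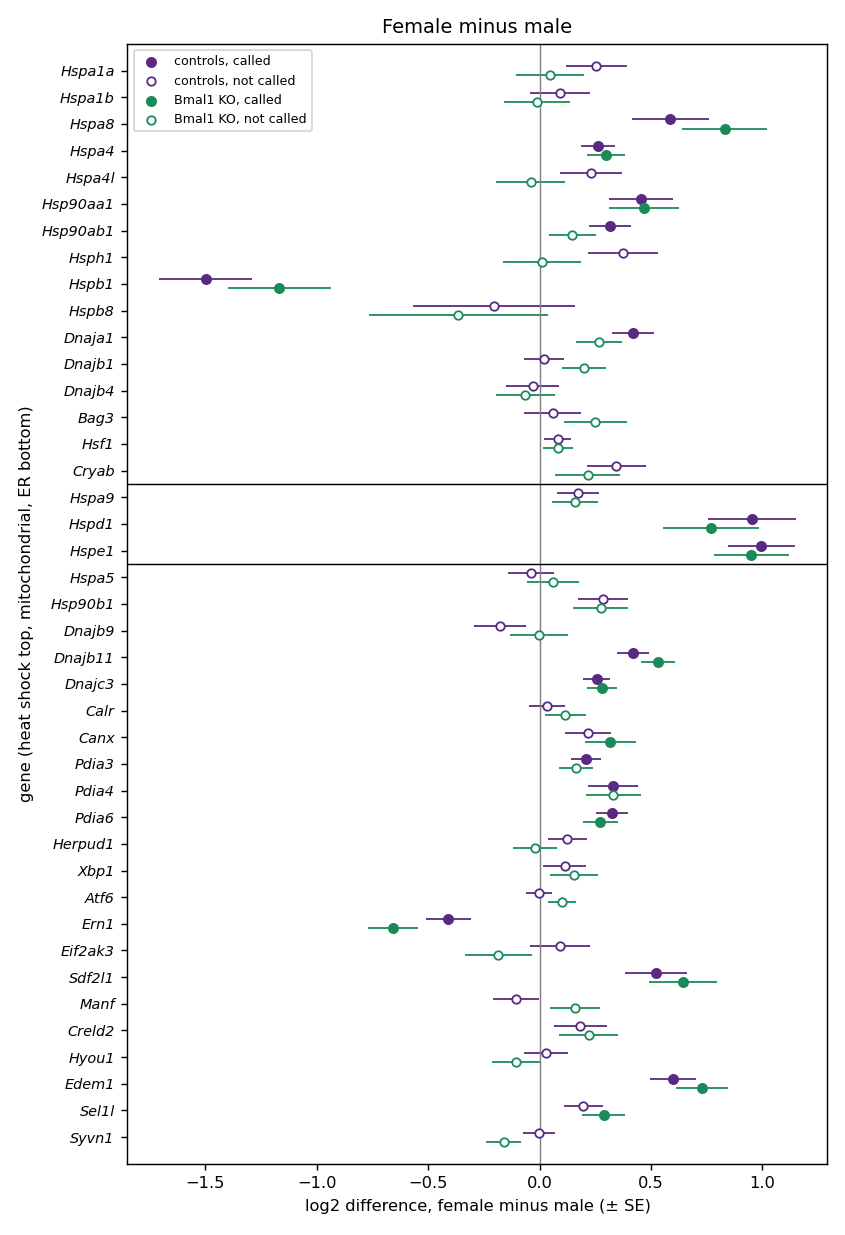
Difference between females and males for each of the 41 chaperone genes, as log2(normalised reads + 1) with standard error, in controls and in Bmal1 KO; filled points passed the test at an adjusted p under 0.05. Hspe1 lies farthest to the right and Hspb1 farthest to the left in both genotypes, and Ern1 is the other gene that was lower in females in both.

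Hspd1 and Hspe1 code for Hsp60 and Hsp10, the barrel and lid of the chaperonin of the mitochondrial matrix. Their genes lie at chr1:55077835-55088243 on the minus strand and chr1:55088132-55091307 on the plus strand, so the annotated genes overlap at their 5' ends. Bases shared by their exons were not counted. Hspd1 stood at 32707, 48935, 36056, 36324 and 45765 in control females, and in control males it lay from 16021 to 36705 (median 19450.5). The highest male value was that of control male 6, and the other 5 control males were all below every control female. The difference was 0.95 ± 0.20 (adjusted p = 0.00102), 1.94-fold, and it was called without each library in turn, reaching 1.12 without control male 6. In Bmal1 KO, Hspd1 stood at 33246, 38882, 53951, 59653 and 35029 in females and 32494, 21691, 27243 and 20932 in males, with no overlap and a difference of 0.77 ± 0.22 (adjusted p = 0.0134). That call was lost without Bmal1 KO male 4 (adjusted p = 0.0510).

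Hspe1 stood at 11147, 14266, 11871, 11949 and 14718 in control females, and in control males it lay from 5248 to 10372 (median 5969.8), with control male 6 again the highest. The groups did not overlap, and the difference was 0.995 ± 0.15 (adjusted p = 4.3e-05), 1.99-fold, and 1.14 without control male 6. In Bmal1 KO, Hspe1 stood at 11669, 13468, 15906, 16965 and 10629 in females and at 7935, 6257, 7663 and 6285 in males, with no overlap and a difference of 0.95 ± 0.17 (adjusted p = 0.000275). Hspa9 differed by 0.17 ± 0.09 (adjusted p = 0.199) in controls and 0.16 ± 0.11 (adjusted p = 0.303) in Bmal1 KO, and did not pass with all libraries. Without control male 6, the highest of its group in all 3 genes, the control difference of Hspa9 was 0.26 ± 0.08 and passed (adjusted p = 0.0169). The differences among the 3 genes were not tested. Mitochondrially encoded genes took 8.54% to 11.5% of reads in control females and 9.22% to 12.4% in control males, ranges that overlap.

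**Figure D3:**
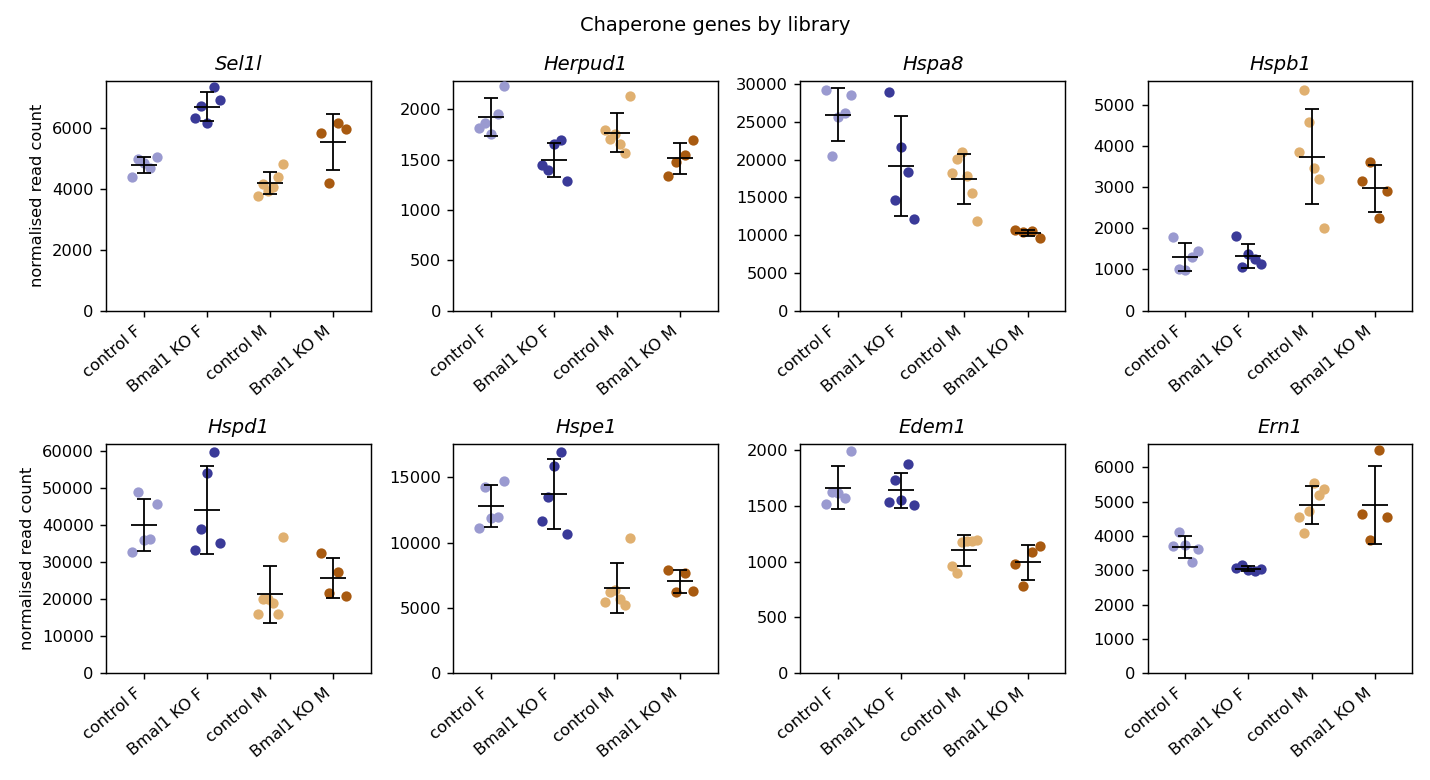
Normalised reads of selected chaperone genes in each of the 20 libraries, by group; each point is 1 library and bars are group means with SD. Sel1l is higher in Bmal1 KO of both sexes except in 1 Bmal1 KO male, Hspd1 and Hspe1 are higher in females, Hspb1 is higher in males, and 1 control male, number 6, lies above its group in Hspd1 and Hspe1.

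Hspb1 (Hsp25 in the mouse), a small heat shock protein that holds unfolded proteins for Hsp70 and binds actin, was higher in males; it lies at chr5:135887919-135889563 on the plus strand. It stood at 1783, 997, 977, 1299.7 and 1436 in control females, and in control males it lay from 2011 to 5351 (median 3651). The groups did not overlap, and the difference was -1.50 ± 0.21 (adjusted p = 1.55e-05), so that females were at 0.354 of the male level. In Bmal1 KO it stood at 1816, 1045, 1378, 1251 and 1139 in females and 3147, 3599.8, 2235 and 2889 in males, without overlap, and differed by -1.17 ± 0.23 (adjusted p = 0.000833). The lowest control male was number 6, which was the highest in Hspd1 and Hspe1. Both calls held without each library in turn. Of the other small heat shock proteins, Hspb8 differed by -0.21 ± 0.36 (adjusted p = 0.732) in controls and Cryab by 0.35 ± 0.13 (adjusted p = 0.0569), the opposite direction to Hspb1. Neither passed in the limma-trend fit, while Cryab passed as higher in control females with edgeR (adjusted p = 0.0468), DESeq2 (0.0348), TMM scaling (0.0454) and a filter at 10 (0.0442), and without control female 2, control male 1 or Bmal1 KO male 1 (0.0238 to 0.0489). Cryab shares 17.04% of its exon bases with Hspb2 on the opposite strand, and reads of the 2 cannot be told apart where strand was not used.

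The Hsp70 and Hsp90 proteins of the cytosol and their cofactors were higher in females where they passed. Hspa8 differed by 0.59 ± 0.17 (adjusted p = 0.015) in controls and 0.83 ± 0.19 (adjusted p = 0.00307) in Bmal1 KO, where all 5 females were above all 4 males, at 12092 or more against 10631 or less. Hspa4, an Hsp110 of the cytosol, stood at 5680.3, 6530.4, 6314, 5884 and 6272 in control females and from 4758 to 6077 (median 4972) in control males, where control male 6 was the highest. The Hspa4 difference was 0.26 ± 0.08 (adjusted p = 0.0135), and 0.31 without control male 6, which was the 1 control male inside the female range; with age as a covariate it was lost (adjusted p = 0.174). In Bmal1 KO, Hspa4 stood at 6196, 5818, 6030.4, 7037 and 6061 in females and at 5717, 4432, 5504 and 4665 in males, with a difference of 0.30 ± 0.08 (adjusted p = 0.0134) that was lost without Bmal1 KO male 2 or 4 (adjusted p from 0.0532 to 0.0630). Dnaja1, a J-domain cofactor of Hspa8, stood at 6417, 9479.9, 6232, 6225 and 7329 in control females and from 4898 to 5588 (median 5245) in control males, without overlap. The Dnaja1 difference was 0.42 ± 0.09 (adjusted p = 0.002) in controls, while in Bmal1 KO, with 7579, 7702, 7000.2, 6478 and 6215 in females and 5132, 6422, 5655 and 6019 in males, it was 0.27 ± 0.10 (adjusted p = 0.0687) and did not pass, except without control female 2 (0.0162) or Bmal1 KO female 5 (0.0481). Hsp90aa1, the inducible Hsp90, differed by 0.46 ± 0.14 (adjusted p = 0.0213) and 0.47 ± 0.16 (adjusted p = 0.0355), and Hsp90ab1 by 0.32 ± 0.09 (adjusted p = 0.0157) and 0.15 ± 0.10 (adjusted p = 0.341). The control call of Hsp90aa1 was lost without control female 1 or 2 (adjusted p up to 0.0691) and that of Hsp90ab1 without control female 1 (0.0511). In Bmal1 KO the Hsp90aa1 call was lost without any of Bmal1 KO females 1, 2 and 4 and males 1, 3 and 4 (0.0576 to 0.0976). Of Dnaja1's exon bases, 7.05% overlap Smu1 on the opposite strand.

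Other genes of the heat shock arm gave no sex call in either genotype: Hspa1a differed by 0.25 ± 0.14 (adjusted p = 0.189) in controls and Hspa1b, its near copy, by 0.09 ± 0.14 (adjusted p = 0.674), with 0.05 ± 0.15 and -0.01 ± 0.15 in Bmal1 KO. Dnajb1 and Bag3 differed by 0.02 ± 0.09 and 0.06 ± 0.13 in controls, and Hsf1 by 0.08 ± 0.06. Hspa4l, Hsph1 and Dnajb4 differed by 0.23 ± 0.14, 0.37 ± 0.16 and -0.03 ± 0.12 in controls. Hsph1 passed in controls without control female 4 (0.49, adjusted p = 0.0249) and with age as a covariate (0.65, adjusted p = 0.0179). A list of 10 immediate early genes, which respond to handling and to stimulation within minutes, had 9 lower in control females, with sums from 26179 to 64431 normalised reads against 74963 to 129102 in control males. In Bmal1 KO 4 of the 10 were called lower in females, with sums from 45236 to 54468 against 67973 to 87552. Their part in the sex differences of the chaperones was not tested.

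In the ER, Edem1, Dnajb11, Dnajc3, Sdf2l1 and Pdia6 were called higher in females in both genotypes, Pdia3 and Pdia4 in controls and Canx and Sel1l in Bmal1 KO, and the sensor Ern1 was called lower in both. Edem1 (chr6:108828641-108859356, plus strand) stood at 1516, 1628, 1612, 1566 and 1995 in control females and from 895 to 1197 (median 1182) in control males. In Bmal1 KO it stood at 1536, 1731, 1552, 1873 and 1505 in females and at 976, 779.9, 1083 and 1139 in males. Females were above males without overlap in both genotypes, with differences of 0.60 ± 0.10 (adjusted p = 0.000201) and 0.73 ± 0.12 (adjusted p = 8.95e-05). Ern1 ran from 3239 to 4114 in control females against 4079 to 5538 in control males, and from 2989 to 3159 against 3897 to 6515 in Bmal1 KO. Its difference was -0.41 ± 0.10 (adjusted p = 0.00442) in controls, with an overlap at control female 2, and -0.66 ± 0.11 (adjusted p = 0.000185) in Bmal1 KO, without overlap. The other sensors gave no call, with -0.00 ± 0.06 for Atf6 and 0.09 ± 0.13 for Eif2ak3 in controls, and total Xbp1, the target of Ern1, differed by 0.11 ± 0.10 (adjusted p = 0.438).

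Dnajb11 (ERdj3), which delivers unfolded proteins to BiP, stood at 1555, 1578, 1530.5, 1537 and 1698 in control females and from 994 to 1379 (median 1183) in control males. In Bmal1 KO it stood at 1618, 1492, 1407, 1581 and 1426 in females and at 1048, 1039, 994 and 1081 in males. The sexes did not overlap in either genotype, and the differences were 0.42 ± 0.07 (adjusted p = 0.00012) and 0.53 ± 0.08 (adjusted p = 3.46e-05). Dnajc3, another cofactor of BiP and an inhibitor of PERK, differed by 0.26 ± 0.06 (adjusted p = 0.00357) and 0.28 ± 0.07 (adjusted p = 0.00482), also without overlap in both. Sdf2l1, which works with Dnajb11, stood at 429, 359.5, 399.7, 449 and 614 in control females and from 236 to 372 (median 318) in control males. In Bmal1 KO, Sdf2l1 stood at 462, 414, 340.1, 379 and 306 in females and at 239.9, 269.8, 204 and 254 in males, without overlap. The differences of Sdf2l1 were 0.52 ± 0.14 (adjusted p = 0.00749) and 0.64 ± 0.15 (adjusted p = 0.0041). Hspa5, the partner of these cofactors, did not pass, with -0.04 ± 0.10 (adjusted p = 0.826) in controls and 0.06 ± 0.12 (adjusted p = 0.758) in Bmal1 KO.

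Pdia6, a disulphide isomerase that binds BiP and Ern1, stood at 5268, 6094, 5523, 5632 and 6531 in control females and from 4070.4 to 4814 (median 4769.8) in control males, without overlap. In Bmal1 KO it stood at 5570.5, 5821, 5774, 5517 and 4605 in females and at 4124, 4703, 4372 and 4843 in males, where Bmal1 KO female 5 fell within the male range. The differences were 0.33 ± 0.07 (adjusted p = 0.00178) and 0.27 ± 0.08 (adjusted p = 0.0166), the latter lost without Bmal1 KO male 1 (adjusted p = 0.0595). Pdia3 and Pdia4, other isomerases, passed in controls with 0.21 ± 0.07 (adjusted p = 0.0277) and 0.33 ± 0.11 (adjusted p = 0.032) and did not pass in Bmal1 KO, with 0.16 ± 0.08 (adjusted p = 0.126) and 0.33 ± 0.12 (adjusted p = 0.058). Pdia3 no longer passed when control female 2, control female 5, control male 3 or control male 4 was left out, nor Pdia4 when control female 2 or 5, or one of control males 4, 5 and 6, was (adjusted p up to 0.0927), and neither passed with only the 2 control groups in the fit (0.0552 and 0.0604). Pdia3 was also lost with age as a covariate (0.0649). In Bmal1 KO, Pdia4 passed in 5 other fits, among them DESeq2 (0.0336) and limma-voom (0.0462), and without Bmal1 KO female 1 (0.0241) or control male 4 (0.0487). Canx and Sel1l passed in Bmal1 KO with 0.32 ± 0.11 (adjusted p = 0.0474) and 0.29 ± 0.10 (adjusted p = 0.0349) and not in controls, with 0.22 ± 0.10 (adjusted p = 0.129) and 0.20 ± 0.09 (adjusted p = 0.103). The Canx call was lost without 13 of the 20 libraries (adjusted p up to 0.155), and the Sel1l call without Bmal1 KO female 2, 4 or 5 or male 2 (up to 0.166), with only the 2 Bmal1 KO groups (0.0950) and with age as a covariate (0.0782). In controls Sel1l passed without control male 6 (0.24 ± 0.09, adjusted p = 0.0464) or Bmal1 KO male 2 (0.0292), and Canx without control female 4 (0.0430) or with age as a covariate (0.0332). No difference between these sex effects in the 2 genotypes was detected, since the same interaction gave 0 calls. Calr, Manf, Hyou1, Herpud1 and Syvn1 did not pass in either genotype (Syvn1 was lower in Bmal1 KO females than males without Bmal1 KO female 1, at -0.22, adjusted p = 0.0390), nor did the cofactor Dnajb9, with -0.18 ± 0.12 in controls and -0.00 ± 0.13 in Bmal1 KO. Hsp90b1 did not pass in controls, with 0.28 ± 0.11 (adjusted p = 0.0671), but did without control male 6 (0.33 ± 0.11, adjusted p = 0.0357), without control female 3 or 4 (0.0441 and 0.0423), with DESeq2 (0.0422) and with TMM scaling (0.0480). In Bmal1 KO it differed by 0.28 ± 0.12 (adjusted p = 0.119). Creld2 stood at 653, 662, 666, 747 and 1116 in control females and from 579 to 695 (median 679) in control males, against 736, 689.9, 647, 704 and 584 and 499.7, 683, 516 and 619.5 in Bmal1 KO females and males. Its sexes overlapped in both genotypes, with 0.18 ± 0.12 (adjusted p = 0.289) and 0.22 ± 0.13 (adjusted p = 0.251).

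The makeup of the gland moved with sex as well. All 3 markers of the X-zone, the inner cortical zone that persists in young females, were higher in control females, where their summed level was 36085 to 135810 normalised reads. In control males that sum ran from 63.6 to 674. Of 7 cortex markers 5 were higher and 1 lower in control females, and their sum ran from 1151600 to 1510140 against 849382 to 1296200 in control males. Of 6 medulla markers 0 passed in controls. In Bmal1 KO all 3 X-zone markers and 4 of 7 cortex markers were higher in females and 0 cortex markers lower, 1 of 6 medulla markers was higher (Pnmt, at 1.21), and 2 of 5 endothelial markers (Kdr and Tie1) and the macrophage marker Mrc1 were lower. However, 4 of the 6 medulla markers had a negative difference there (median -0.10), and 2 of the 5 macrophage markers a positive one, up to 0.61. In controls the endothelial marker Tie1 was lower and the macrophage marker Cd68 higher in females. The 5 adipocyte genes had a median of 0.45 in controls, with 4 positive, and of -1.37 in Bmal1 KO, with all 5 negative, and 0 passed. The part of these shifts in the chaperone differences was not tested.

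Wider lists of the same pathways were read against the shares over all genes and over abundant genes given above (1.75% and 3.05% for Bmal1 KO in females, 1.33% and 2.53% in males, and, for the sexes, 26.4% and 41.8% among controls and 22.8% and 37.7% within Bmal1 KO). Of 40 other cytosolic chaperones, cofactors and chaperonin subunits, 1 rose in Bmal1 KO females, the Hsp70 and Hsp90 cofactor Dnajc7, at 0.20 (adjusted p = 0.0247), and 0 changed in males. In males 8 of the 40 had an unadjusted p under 0.05, where 2899 of all 26612 genes did, and edgeR called 0 and DESeq2 called 2. Of 35 other ER folding and degradation genes tested, limma called 0 in either sex. At an unadjusted p under 0.05 there were 4 in females and 9 in males, against 3110 and 2899 of all 26612 genes. For the same 35 genes edgeR called 2 in females and 0 in males, and DESeq2 2 in each. By sex in controls, 19 of the 40 cytosolic genes were higher in females and 3 lower (55.0%), with a median of 0.14, and 12 of the 35 ER genes were higher and 1 lower (37.1%), with a median of 0.15. The 3 cytosolic genes with the smallest p in controls were Ptges3, the Hsp90 co-chaperone p23, at 0.49, the Hsp90 activator Ahsa1, at 0.50, and the glucocorticoid-induced Hsp90 partner Fkbp5, at -1.67. In the ER list these were Ppp1r15a, the phosphatase subunit that ends PERK signalling, at -1.10, the cargo coat subunit Sec24d, at 1.12, and the collagen chaperone Serpinh1, at 0.93. In Bmal1 KO 17 cytosolic genes were higher and 1 lower (45.0%), and 12 ER genes were higher and 1 lower (37.1%). The ER share lay close to that of abundant genes in Bmal1 KO (37.1% against 37.7%) and somewhat below it in controls (37.1% against 41.8%). The cytosolic share lay above it in both (45.0% and 55.0%). These shares were not tested against the background. The abundant genes were cut at the level of the lowest chaperone described above, and both wider lists also hold genes below that level. Of the subunits of the cytosolic chaperonin TRiC, Tcp1, Cct2, Cct3, Cct4, Cct5, Cct6a, Cct7 and Cct8 were called higher in control females, by 0.19 for Cct4 up to 0.46 for Cct2.

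To set the arms against each other within libraries, each gene's log2 value was centred on its mean over the 20 libraries and averaged over the arm. For the heat shock arm that mean was 0.11 ± 0.13 (SD, n = 5) in control females and -0.03 ± 0.11 (SD, n = 5) in those labelled Bmal1 KO, and in males it was -0.00 ± 0.08 (SD, n = 6) and -0.10 ± 0.06 (SD, n = 4). The ER arm gave 0.10 ± 0.12, 0.04 ± 0.08, -0.04 ± 0.06 and -0.12 ± 0.07 in the same order of groups. The arms kept the same order of groups at their ends, with control females highest and Bmal1 KO males lowest, and the heat shock arm minus the ER arm ranged from -0.26 in Bmal1 KO female 4 to 0.20 in control male 4. In each group that difference had values on both sides of 0. These means are descriptions of the chosen genes and were not tested.

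**Figure D4:**
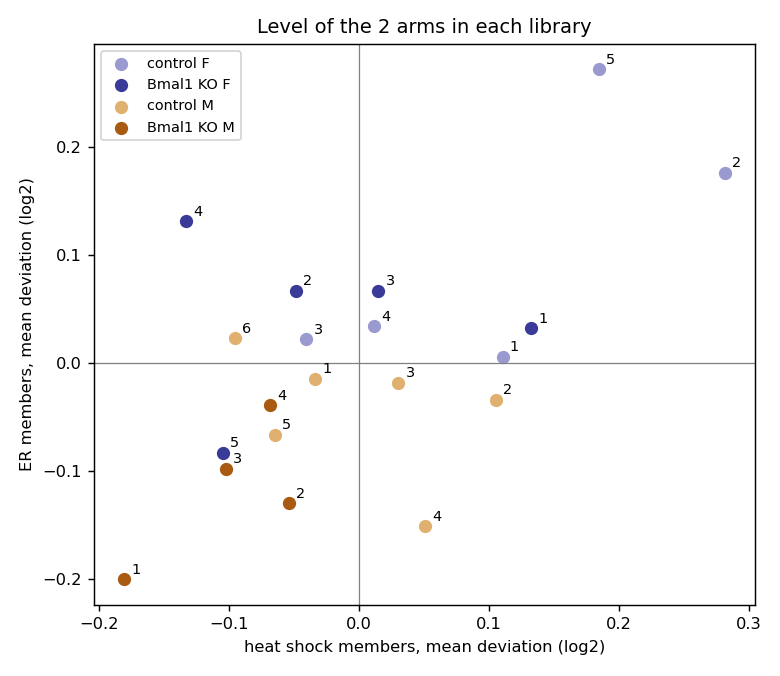
Mean deviation from the mean over all 20 libraries, in log2 units, of the heat shock arm (horizontal axis) and of the ER arm (vertical axis), 1 numbered point per library, coloured by group. Control females 2 and 5 lie at the upper right and all 4 Bmal1 KO males at the lower left, and single libraries such as control male 4 and Bmal1 KO female 4 have the arms on opposite sides of 0.

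Single libraries shifted many genes of an arm at once. Control female 5 was the highest of its group in 13 of 22 ER genes and in 4 of 16 heat shock genes, and Bmal1 KO female 5 was the lowest of its group in 14 of 22 ER genes. Bmal1 KO female 1 was highest in 8 of 16 heat shock genes. Control male 6 was highest in all 3 mitochondrial genes and in 10 of 22 ER genes, and control male 4 was lowest in 11 of 22 ER genes. Bmal1 KO male 1 was lowest in 11 of 22 ER genes and 7 of 16 heat shock genes and highest in all 3 mitochondrial ones. The mitochondrial genes thus moved apart from the other arms in that library.

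**Figure D5:**
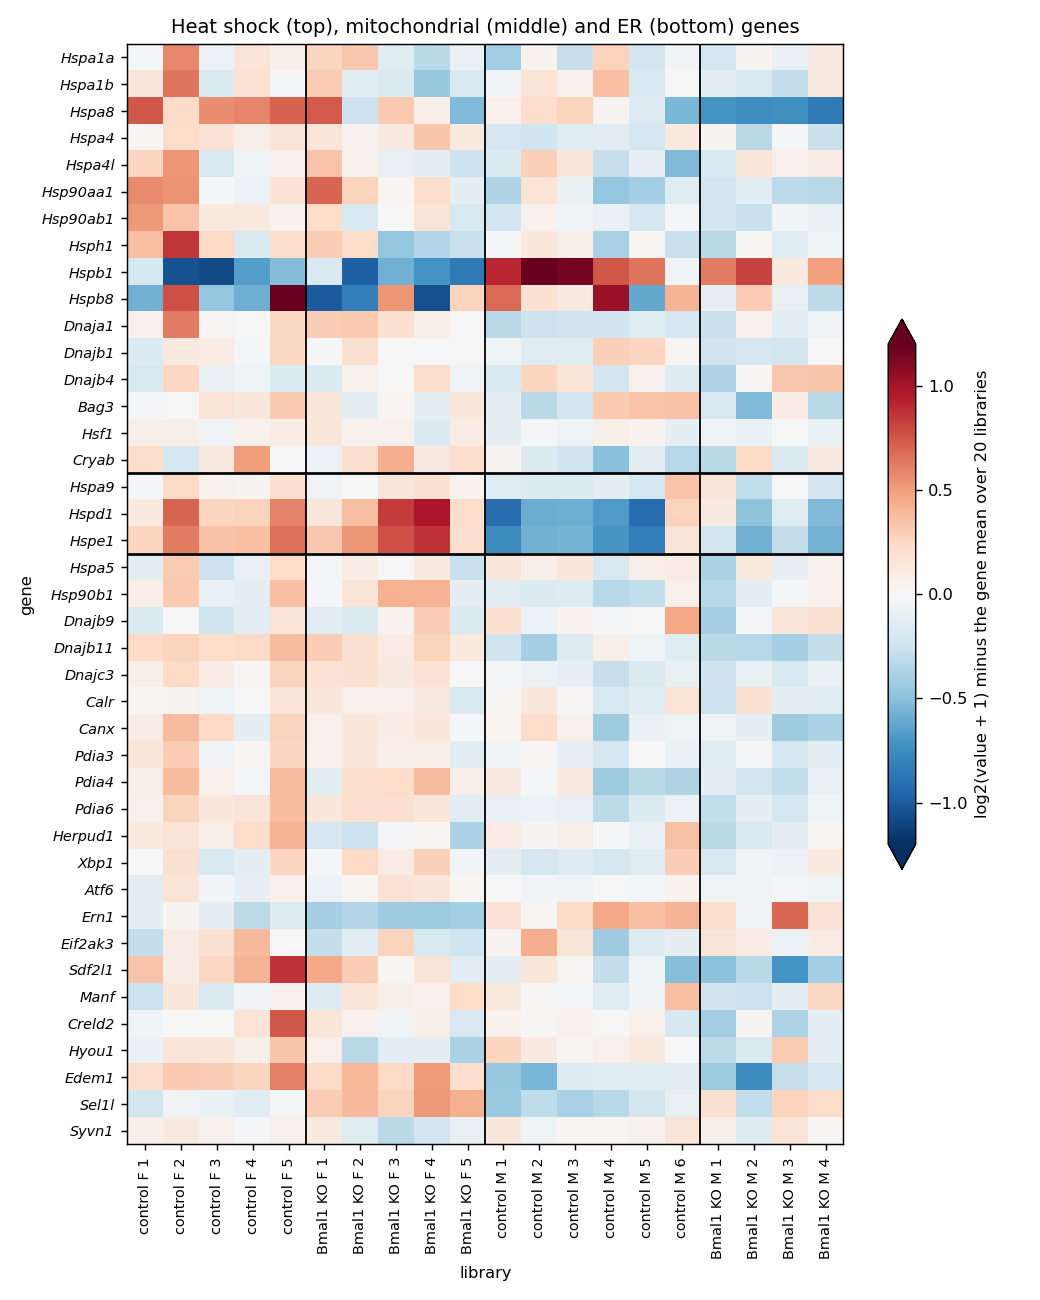
Deviation of each of the 41 chaperone genes (rows, by arm) from its mean over the 20 libraries, in log2 units (color), in each library (columns, by group). The Hspd1 and Hspe1 rows are high in females and in control male 6, the Hspb1 row is high in males, and the Sel1l row is high in Bmal1 KO libraries other than Bmal1 KO male 2.

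The pair of genes that varied most alike between libraries of a group was Hspd1 and Hspe1. Likeness is Pearson's r between deviations from group means over the 20 libraries, which share group means, size factors and tissue makeup, and it is given as a description. Hspd1 and Hspe1, which are transcribed from the shared stretch printed above, had the highest r, 0.973 (Spearman's rho 0.935), and 0.947 without the 2 libraries farthest out. Hspa9 went with Hspd1 at 0.914 (0.850 without the 2 libraries farthest out) and with Hspe1 at 0.877 (0.796), and the cytosolic Hspa4 went with Hspa9 at 0.898 (0.862). In the ER arm the highest were Dnajc3 and Pdia6 at 0.890 (0.848), Dnajb9 and Herpud1 at 0.887 (0.8291) and Hspa5 and Dnajc3 at 0.885 (0.911). Control male 6, far above its group in Hspa4, Hspa9, Hspd1 and Hspe1, enters the r of the mitochondrial pairs. The first and the last of these ER pairs join genes whose promoters hold the ER stress response element. Whether pairs that share the element vary more alike than other ER pairs was not tested. Hspa8 went most with Hspb1, at 0.772, although females were higher in Hspa8 and lower in Hspb1. The near copies Hspa1a and Hspa1b had r = 0.791. Over all pairs the median r was 0.252 within the ER arm (231 pairs), 0.081 within the heat shock arm (120 pairs) and 0.079 between the arms (352 pairs), so that the median within the heat shock arm lay close to that between arms.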

How the data were processed

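RNA was sequenced from 20 whole-adrenal libraries. Per the submitters' processing notes, FastQC, MultiQC, featureCounts, Salmon and DESeq2 were used with mm10/GRCm38; for versions, strand setting and aligner the sources used here say nothing. The authors deposited 1 signal value per gene and library. Every value of all 20 libraries was a whole multiple of 1 step within 0.001 of a read (100%), so the deposited signal is a read count divided by a size factor, called normalised reads here. Of 47729 genes, 13350 were at 0 throughout.

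limma-trend (limma 3.58.1, R 4.3.3) modelled log2(value + 1) by 1 mean per group over all 20 libraries, for the 26612 genes that reached 1 in 4 or more libraries, with Benjamini-Hochberg adjustment over all genes; every adjusted p is from it unless another tool is named. This understates changes of low genes. The design had named this test for normalised values. Alternatives were edgeR 4.0.16 and DESeq2 1.42.0 on the recovered reads, limma-voom, TMM scaling, pseudocounts of 0.1 and 5, no filter or a filter at 10, fits of 2 groups, a replicate block, age as a covariate, and leaving out each library. The script was tested on simulated data. Depth of 13421985 to 26742820 reads sets the counting error of each value. No pair of libraries of a group agreed within sampling noise. Positions and exon lengths are from GENCODE M21 on GRCm38, and promoters from RefSeq on GRCm38.p6. The protein sequences were not used here.

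The members, the lists and the tests were chosen with earlier results of these data known. All 41 members are accounted for. Members called in a comparison are named, as are the genes with the smallest p in an arm without a call; values in every library are given for 18 of them. From other lists up to 3 called genes are named, and the TRiC subunits were chosen after their values were seen.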

Additional observations from a re-analysis of the deposited data

Results flagged for a closer look

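In 11 cases a value lay far from the rest of its group, with a gap to the nearest library above Dixon's critical value for the group size. In all, 84 groups of values were tested, and chance flags about 1 in 20 groups. The genes tested were the 18 whose values are given in every library, not all 41. Control male 6 gave 6 of the 11. It was the highest of the control males in Hspa4 (6077 normalised reads), Hspa9 (18023), Hspd1 (36705) and Hspe1 (10372) and in the mean deviation of the mitochondrial genes (0.26), and the lowest in Creld2 (579). The same library was highest of its group in Arntl, at 1092, and in the share of mitochondrially encoded reads, at 12.4%. Control female 5 was the highest control female in Dnajb11 (1698), Creld2 (1117) and Edem1 (1995), all genes of the ER. Bmal1 KO female 5 was the lowest of its group in Pdia6 (4605). Bmal1 KO female 3 was the highest of its group in Eif2ak3 (869.96). Outside the 18 genes, Xbp1 stood at 3923 in control male 6, against 2967 or less in the other control males. Likewise Hspa5 stood at 13758 in control male 4, against 16597 or more in the other control males. The part of tissue makeup or handling in these values was not tested.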

How the results depend on the processing

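Calls between genotypes were few; that of Sel1l in females held under all 11 alternatives and without each of the 20 libraries (adjusted p up to 0.0228), and the other 3 were lost under some. In females 2 members were called, and 1 without the filter on low values, with only the 2 groups of the comparison, and with age as a covariate; Herpud1 was the call lost each time (adjusted p = 0.0587, 0.0948 and 0.0727). In males 2 were called, and 1 with limma-voom, with a pseudocount of 0.1 or 5 and without the filter (Hspa8 lost, adjusted p = 0.0735, 0.0527, 0.0519 and 0.0646), and 1 with only the 2 groups (Sel1l lost, 0.184); with age as a covariate 0 remained (Hspa8 0.0898, Sel1l 0.0672). Leaving out each library in turn gave 1 to 2 calls in females, 0 to 2 in males, 0 for the interaction, 14 to 19 by sex in controls and 10 to 15 by sex in Bmal1 KO. In the same runs the median of the heat shock arm by sex in controls ran from 0.14 to 0.28. By sex, other fits gained Cryab, Hsp90b1, Canx and Hsph1 in controls and Pdia4, Pdia3 and Hsp90b1 in Bmal1 KO, and lost Hspa4, Pdia3 and Pdia4 in controls and Canx and Sel1l in Bmal1 KO. No called difference changed sign under any alternative run. Over all genes DESeq2 called 913 in females, 726 in males and 83 for the interaction against 467, 354 and 8 by limma-trend, and limma-voom called 3 and the age covariate 0 for the interaction; by sex in controls the age covariate left 3746 calls of 7023. The fit with only the 2 groups was not run for the interaction.

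Deviations of same-numbered libraries had correlations from -0.07 to 0.14. A control correlated best with its own number in 3 of 5 female pairs and 0 of 4 male pairs. Between the sexes this held for 3 of 5 control pairs and 0 of 4 Bmal1 KO pairs. These values do not settle whether equal numbers are pairs. The labels do not say so, and the main fit has no block. With the replicate block 1 member was called in females (Sel1l) and 1 in males (Hspa8), and Herpud1 (adjusted p = 0.112) and Sel1l in males (0.0563) were lost. By sex the block lost Pdia4 in controls (0.0888) and Sel1l in Bmal1 KO (0.0651) and gained Hsp90b1 in both (0.0155 and 0.0256) and Pdia3 in Bmal1 KO (0.0464).

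Depth was not the limit for these genes, the lowest of which averaged 299.7 normalised reads; the spread between libraries was. Strand, time of collection and the number of animals are unknown from the sources used here, and age differs between the control groups.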
